A study of Mus musculus with 2 samples.

Results

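A group of 8 transcription factors of the pancreatic trunk epithelium and its progenitors, Sox9, Onecut1, Onecut2, Nkx6-1, Pdx1, Glis3, Prox1 and Foxa2, were followed through the epithelium of the embryonic mouse pancreas. They were taken by symbol, and each of the 8 matched 1 of the 32285 features in both libraries. The tissue was whole pancreas at embryonic day 14.5 from mice of the Fgf9 LacZ line on a C57BL/6J background, measured with the 10x Genomics droplet assay, which labels every captured RNA with the barcode of its droplet and with a molecular identifier (UMI), so that copies made by PCR count once. The Null library pooled 3 Fgf9 -/- pancreata, taken from 3 litters. The Control library pooled 8 pancreata, also from 3 litters, that were Fgf9 +/+ or Fgf9 +/-, so part of its cells carried 1 LacZ allele. With 1 pooled library a group, differences have no replicate check and the intervals given reflect counting error alone. The series addresses what the loss of Fgf9, a secreted growth factor, does to this organ.

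The trunk is the inner part of the branching pancreatic epithelium, and its cells give rise to ducts and, through a transient Neurog3-positive state, to hormone cells, while the tips of the branches give rise to acinar cells. Sox9 maintains progenitors and lies upstream of Neurog3 and of duct genes. Onecut1 (HNF6), a cut-homeodomain factor, is needed for duct formation and for Neurog3 expression, and Onecut2 is its close paralogue. Pdx1 marks the early pancreatic epithelium and later mature beta cells, Nkx6-1 sets trunk against tip identity and is later kept in beta cells, and Glis3, a zinc-finger factor, is needed in ducts and beta cells. Prox1 is a homeodomain factor of pancreatic, hepatic and lymphatic development, and Foxa2 is a pioneer factor of the endoderm that acts on Pdx1.

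Cells were placed in classes by marker genes that include none of the 8, and the 8 were also left out of the genes used for clustering. Class names rest on markers alone, and "trunk" or "acinar" stands for trunk-like or acinar-like cells throughout. After filtering, 8869 Null and 26970 Control barcodes were kept, with medians of 24227 and 5751.5 UMIs, and 5980 Null and 10008 Control cells fell in an epithelial class. Trunk cells numbered 1972 in the Null and 3329 in the Control library, endocrine progenitor cells 351 and 772, endocrine precursor cells 312 and 675, acinar cells 2587 and 3698, alpha cells 478 and 1051, and beta cells 196 and 187. Epsilon cells (41 and 77) and delta cells (33 and 42) were too few to compare and are given as levels. Spp1, which codes for the secreted protein osteopontin, is one of the markers that name the trunk class, so its level describes the class and does not check it. It had 4102 CPM in Null and 3456 CPM in Control trunk cells, and in acinar cells it had 200.2 and 399 CPM. CPM here is the number of UMIs of a gene per 1000000 UMIs of all cells of a class, haemoglobin and mitochondrially encoded genes left out.

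The libraries stood apart in ways the labels do not name. Over all kept cells Fgf9 itself had 1.71 CPM in the Null and 9.28 CPM in the Control library. The labels do not say where in the gene the LacZ cassette lies, so the UMIs that remain check nothing about the allele. Xist, the RNA of the silenced X chromosome, had 0.287 CPM in the Null and 384 CPM in the Control library, and the labels do not give the sex of the embryos. Xist thus differed along with genotype. A part of embryo sex in the Null over Control ratios below cannot be told apart from that of genotype. Of the barcode sequences, 180 occurred in both libraries. Free RNA, which gives UMIs in cells that do not make a gene, was estimated in each class from digestive enzyme genes against the profile of all cells, at 6.75% of Null and 18.3% of Control trunk UMIs and at 8.06% of Null and 32.4% of Control immune UMIs. In immune cells, which should lack the 8 genes, Sox9 had 15.5 CPM in the Null and 121 CPM in the Control library. In the same cells Onecut1 had 5.44 and 50.7 CPM, Nkx6-1 11.8 and 65.6 CPM, Prox1 14.4 and 52.1 CPM, Pdx1 3.69 and 33.4 CPM, Foxa2 3.69 and 28.0 CPM, Glis3 1.36 and 7.29 CPM, and Onecut2 1.17 and 0.508 CPM. Levels at or under these values are read below as background, and the Control background was the higher for 7 of the 8 genes.

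RefSeq promoter stretches of 3 members (GRCm38.p6, the 250 bases before the start, written on the gene's own strand) are shown. Onecut1 is shown as a trunk gene and Glis3 as a member that was over 1.5-fold higher in Null trunk cells. Foxa2 is shown because its stretch holds the core that Onecut factors bind. The stretches are Onecut1 chr9:74861671-74861920 (plus strand), Glis3 chr19:28680078-28680327 (minus strand) and Foxa2 chr2:148046970-148047219 (minus strand), with motif matches in capitals.
Onecut1: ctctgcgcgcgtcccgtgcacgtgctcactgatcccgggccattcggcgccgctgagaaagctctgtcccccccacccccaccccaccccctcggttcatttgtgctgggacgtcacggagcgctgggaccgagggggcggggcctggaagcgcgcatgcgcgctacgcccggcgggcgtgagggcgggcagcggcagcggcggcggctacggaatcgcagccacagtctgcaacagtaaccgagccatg
Glis3: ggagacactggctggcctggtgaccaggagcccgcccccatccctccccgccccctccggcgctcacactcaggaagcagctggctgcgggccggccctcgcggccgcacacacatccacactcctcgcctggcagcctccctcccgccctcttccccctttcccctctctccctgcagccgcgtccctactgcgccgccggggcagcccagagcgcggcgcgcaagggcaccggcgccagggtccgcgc
Foxa2: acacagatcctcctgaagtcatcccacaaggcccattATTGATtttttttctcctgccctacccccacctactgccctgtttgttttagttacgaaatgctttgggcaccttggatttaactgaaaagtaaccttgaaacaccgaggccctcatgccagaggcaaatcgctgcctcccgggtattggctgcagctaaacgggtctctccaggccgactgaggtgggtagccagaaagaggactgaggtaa
Of the 8 members, 6 matched the table, with 9 stretches in all, and Sox9 and Onecut2 are named only. The motifs searched on both strands were the Onecut core ATCAAT, the Foxa cores TGTTTAC and TGTTTGC, the Sox cores ACAATG and ACAAAG, and the homeodomain core TAATTA, and none of them overlap in these stretches. The Onecut core occurred in 1 of the 9 member stretches, the one of Foxa2 above, where it reads ATTGAT on the printed strand, and in 6.72% of all 32851 stretches. The Foxa core TGTTTGC occurred in 1 of the 9, at Prox1, against 4.30% of all, and the Sox core ACAAAG in 2 of the 9, at a second Foxa2 start and at Prox1, against 16.5% of all. The Foxa core TGTTTAC (3.17% of all), the Sox core ACAATG (10.7% of all) and TAATTA (4.84% of all) were in none. A match is a description of the letters and shows no binding.

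On GRCm38, the build of the deposited files (mm10), and in the GENCODE vM21 annotation, the members lie on 7 chromosomes. Sox9 (ENSMUSG00000000567) is at chr11:112782224-112787760 and Onecut1 (ENSMUSG00000043013) at chr9:74861921-74891781, both on the plus strand. Onecut2 (ENSMUSG00000045991) is at chr18:64340020-64400987 and Pdx1 (ENSMUSG00000029644) at chr5:147269959-147275848, also on the plus strand. Nkx6-1 (ENSMUSG00000035187) is at chr5:101658139-101664996, Glis3 (ENSMUSG00000052942) at chr19:28258851-28680077, Prox1 (ENSMUSG00000010175) at chr1:190118035-190170714 and Foxa2 (ENSMUSG00000037025) at chr2:148042877-148046969, all on the minus strand. UMIs are counted over the whole gene and are not tied to an exon. Onecut1 overlaps the lincRNA Gm20649 on its own strand, Pdx1 the antisense Plut, Glis3 the sense intronic 4933413C19Rik and the antisense D930032P07Rik, and Prox1 Gm28172 and the antisense Prox1os. The sources used here do not say if reads were counted by strand, so the values of these 4 genes may hold reads of their overlapping partners. No annotated gene overlaps Sox9, Onecut2, Nkx6-1 or Foxa2.

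Sox9 and Onecut1 were the trunk genes of the group, each highest in trunk cells of both libraries with intervals that did not meet those of any other class. Sox9 had 875 CPM (95% Poisson interval 867 to 883) in Null and 817 CPM (810.2 to 824) in Control trunk cells. It was 2.21-fold (2.13 to 2.30) higher in trunk than in endocrine progenitor cells in the Null library and 2.61-fold (2.52 to 2.71) in the Control library, and 4.54-fold and 2.87-fold higher in trunk than in acinar cells. In delta cells Sox9 had 242 CPM in the Null and 295 CPM in the Control library, above the immune background of either. Onecut1 had 419 CPM (414 to 425) in Null and 326 CPM (322 to 331) in Control trunk cells. It was next highest in acinar cells, at 149 and 146 CPM, and then in endocrine progenitor cells, at 109.9 and 80.1 CPM. In endocrine precursor cells Onecut1 had 4.71 CPM in the Null and 15.7 CPM in the Control library, both under the immune value of their own library, so in these cells Onecut1 could not be told from background.

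Glis3 was low in the epithelial classes. It had 41.8 CPM in Null and 26.0 CPM in Control trunk cells, 39.1 and 26.8 CPM in endocrine progenitor cells, and 38.4 and 33.3 CPM in beta cells. The intervals of these 3 classes overlapped in the Null library, and in the Control library the order beta, endocrine progenitor, trunk held no pair of neighbours apart. Acinar cells held 5.74 and 4.92 CPM, so trunk cells had 7.28-fold (6.69 to 7.94) more in the Null and 5.28-fold (4.80 to 5.81) more in the Control library. The Control acinar value lay under that of Control immune cells and is read as background, so the Control ratio compares trunk cells with background.

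Pdx1 and Nkx6-1 were highest not in trunk cells but in beta and endocrine precursor cells. Pdx1 had 594 CPM (574 to 615) in Null and 512 CPM (488 to 537) in Control beta cells, followed by endocrine precursor cells with 424 and 321 CPM and delta cells with 270.2 and 264 CPM. In trunk cells it had 92.1 and 96.5 CPM, close to acinar cells with 91.1 and 103 CPM, and its lowest value was in endocrine progenitor cells, at 62.7 and 65.6 CPM. Beta cells thus held 6.46-fold (6.17 to 6.75) more Pdx1 than trunk cells in the Null library and 5.30-fold (5.02 to 5.59) more in the Control library. Nkx6-1 had 583 and 495 CPM in beta cells and 577 and 532 CPM in endocrine precursor cells, neighbours whose intervals overlapped in both libraries, although in the Control library the beta to precursor ratio was 0.931-fold (0.880 to 0.986). It was lower in endocrine progenitor cells, at 457 and 404 CPM, and in trunk cells, at 280.1 and 274 CPM. Acinar cells held 55.7 and 74.8 CPM of Nkx6-1, the lowest of the classes with at least 50 cells in both libraries, and the Control value there was near its immune background of 65.6 CPM.

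Prox1 and Foxa2 leaned to the early endocrine cells. Prox1 had 553 CPM (502 to 609) in Null and 460 CPM (420 to 502) in Control epsilon cells and 528 (511 to 545) and 416 (404 to 428) CPM in endocrine progenitor cells, neighbours that could not be told apart in either library. Trunk cells had 234 and 213 CPM of Prox1, and beta cells were low, with 88.2 and 100.5 CPM. Foxa2 had 308 CPM (270 to 350.3) in Null and 184 CPM (159 to 211) in Control epsilon cells. Endocrine precursor cells followed with 163 and 161 CPM and endocrine progenitor cells with 154 and 150 CPM. Trunk cells were the lowest of the 8 epithelial classes in the plot by class for Foxa2, at 54.9 and 62.9 CPM, 0.357-fold and 0.419-fold the endocrine progenitor level. Its span over the classes with at least 50 cells was the narrowest of the 8, with the highest class 2.97-fold over the lowest in the Null and 2.92-fold in the Control library.

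Onecut2 differed from Onecut1 in its classes. In the Control library it was highest in epsilon cells, at 39.9 CPM (28.9 to 53.8), followed by beta cells at 13.8 CPM, alpha cells at 10.4 CPM and endocrine precursor cells at 10.3 CPM. Control trunk cells held 0.801 CPM (52 UMIs over 3329 cells), within the interval of Control immune cells (0.105 to 1.49 CPM). In the Null library epsilon cells held 73.8 CPM (55.7 to 95.8), and trunk cells 41.0 CPM (2255 UMIs over 1972 cells), against 27.9 CPM in endocrine precursor, 27.2 CPM in beta and 24.4 CPM in alpha cells. Outside the epithelium, neural crest cells held 22.9 CPM in the Null and 24.7 CPM in the Control library (37 and 44 UMIs).

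**Figure D1:**
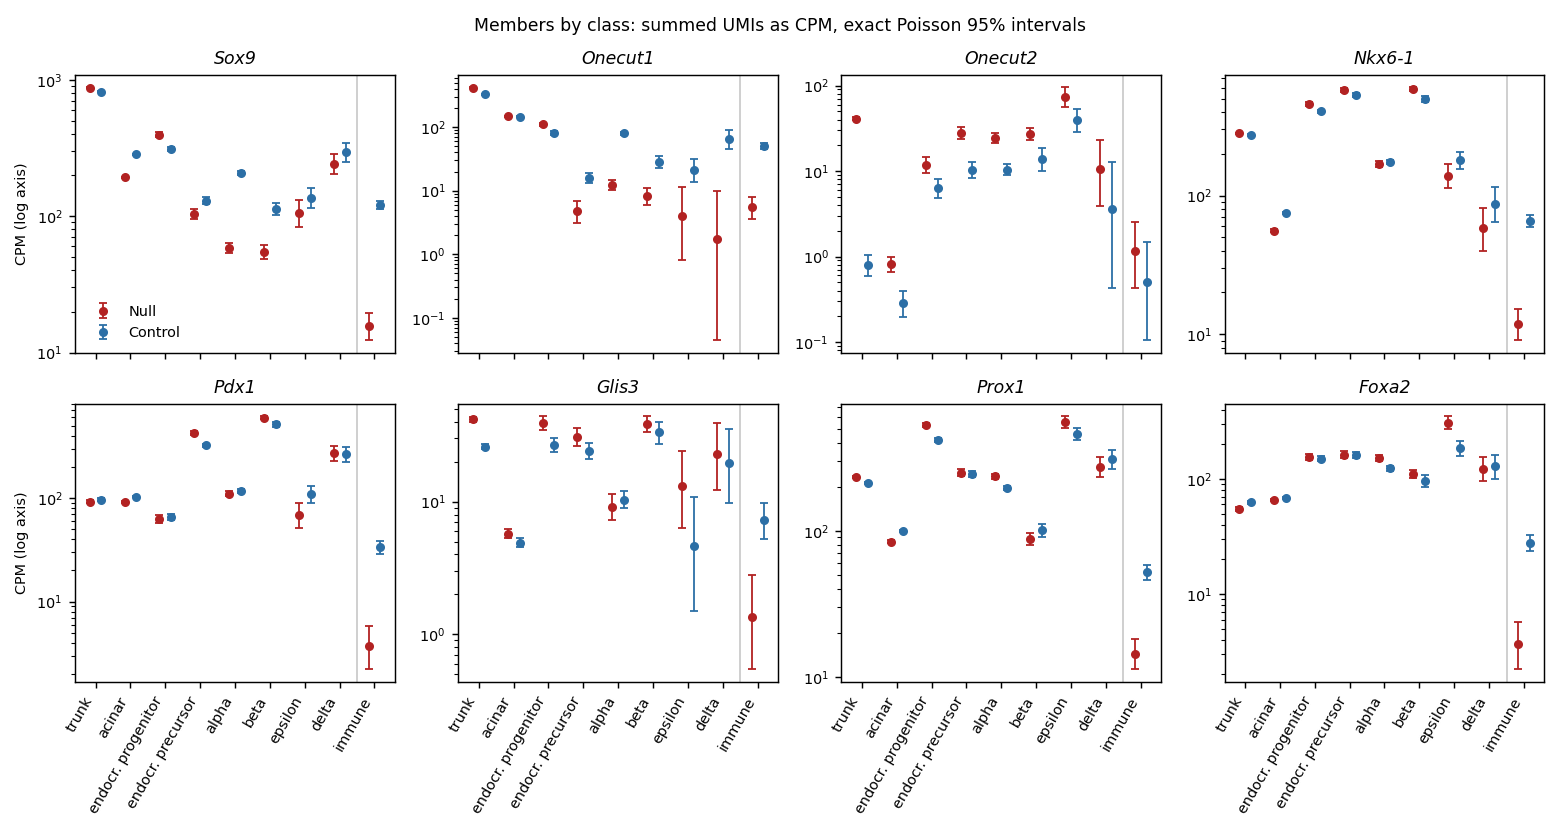
CPM (log axis) of the 8 genes in 8 epithelial classes and, right of the grey line, in immune cells as background; red points are the Null and blue points the Control library, bars are exact Poisson 95% intervals. Sox9 and Onecut1 are highest in trunk cells, Pdx1 in beta cells and Foxa2 in epsilon cells of both libraries, and the Control immune points lie above the Null ones except for Onecut2.

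By class of highest CPM, 4 of the 8 members (Sox9, Onecut1, Glis3 and Onecut2) were highest in trunk cells of the Null library among the 6 classes with at least 100 cells in both libraries, and 2 (Sox9 and Onecut1) in the Control library. Glis3 and Onecut2 are in that count by values that overlap another class or that rest on few cells, as given for each gene.

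In trunk cells, 2 of the 8 members were past 1.5-fold with an interval that excluded no difference, both higher in the Null library, and none was lower. Among all 16201 genes measured in the class, 5.83% passed the same rule as higher in the Null library and 3.27% as lower. At 2-fold, Onecut2 alone passed, where 2.47% of all genes did as higher and 1.75% as lower. The median log2 ratio of Null over Control was 0.12 over the 8 members and 0.09 over all genes. The largest share of Null trunk cells lay in cluster 7, led by Cdh6, Ankrd1 and Dcdc2a (40.9% of Null and 12.2% of Control trunk cells), and the largest share of Control trunk cells in cluster 15 (16.2% of Null and 45.3% of Control). Clusters 9 and 19, led by cell cycle genes, held 25.9% and 14.0% of Null and 29.4% and 13.1% of Control trunk cells. Cluster 10, with the remaining 60 cells, held Null cells only.

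Sox9, the leading trunk factor, differed little, with 48063 UMIs and 875 CPM in Null and 53068 UMIs and 817 CPM in Control trunk cells, a log2 ratio of 0.10 (0.08 to 0.12). Within the 4 clusters shared by both libraries its ratio ran from -0.14 in cluster 15 to 0.08 in cluster 9, so its sign differed between clusters. Nkx6-1, with 280.1 CPM in Null and 274 CPM in Control trunk cells, had a ratio of 0.03 (0.00 to 0.06), Pdx1, with 92.1 and 96.5 CPM, -0.07 (-0.12 to -0.01), and Foxa2, with 54.9 and 62.9 CPM, -0.20 (-0.26 to -0.13). Foxa2 was lower in Null cells in each of the 4 shared clusters, from -0.26 to -0.12, while for Pdx1 the interval excluded no difference in cluster 7 alone (-0.27, -0.40 to -0.14). Prox1 had 234 CPM in Null and 213 CPM in Control trunk cells, a ratio of 0.13 (0.10 to 0.17). By cluster Prox1 ran from -0.05 (-0.12 to 0.03) in cluster 7 to 0.16 (0.08 to 0.25) in cluster 19. Nkx6-1 ran from -0.18 (-0.25 to -0.11) in cluster 7 to 0.26 (0.18 to 0.33) in cluster 19. The small ratio of Nkx6-1 over the class thus covers clusters of opposite sign.

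Onecut1 was moderately higher in Null trunk cells, with 419 CPM in the Null and 326 CPM in the Control library, a log2 ratio of 0.36 (0.33 to 0.39) that did not pass 1.5-fold. The direction was the same in each of the 4 shared clusters, from 0.18 in cluster 7, where Null cells held 473 CPM and Control cells 417 CPM, to 0.34 in cluster 19, where Null cells held 392 CPM and Control cells 311 CPM. After thinning each cell to 5000 UMIs, 82.1% (80.3 to 83.8) of Null and 74.0% (72.4 to 75.5) of Control trunk cells held an Onecut1 UMI, against 1.21% of Null and 12.3% of Control immune cells.

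Glis3 passed the fold rule in trunk cells, with 2298 UMIs and 41.8 CPM in the Null and 1686 UMIs and 26.0 CPM in the Control library, a log2 ratio of 0.69 (0.60 to 0.78). After thinning, 19.6% of Null and 12.8% of Control trunk cells held a UMI, against 0.806% and 3.15% of immune cells. Its level differed between clusters. It was highest in cluster 7 among the shared clusters of both libraries, at 56.4 CPM in Null and 44.5 CPM in Control cells (ratio 0.34), and cluster 15 held 26.1 and 26.4 CPM (ratio -0.02, -0.26 to 0.22). The ratio was 0.68 in cluster 9 and 0.66 in cluster 19. With the clusters of the class weighted alike in each library, Glis3 was at 0.56 and no longer passed the rule. That setting gives cluster 10, which holds 60 Null cells and no Control cell, the same weight as each other Null cluster. Glis3 had 59.4 CPM in cluster 10.

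**Figure D2:**
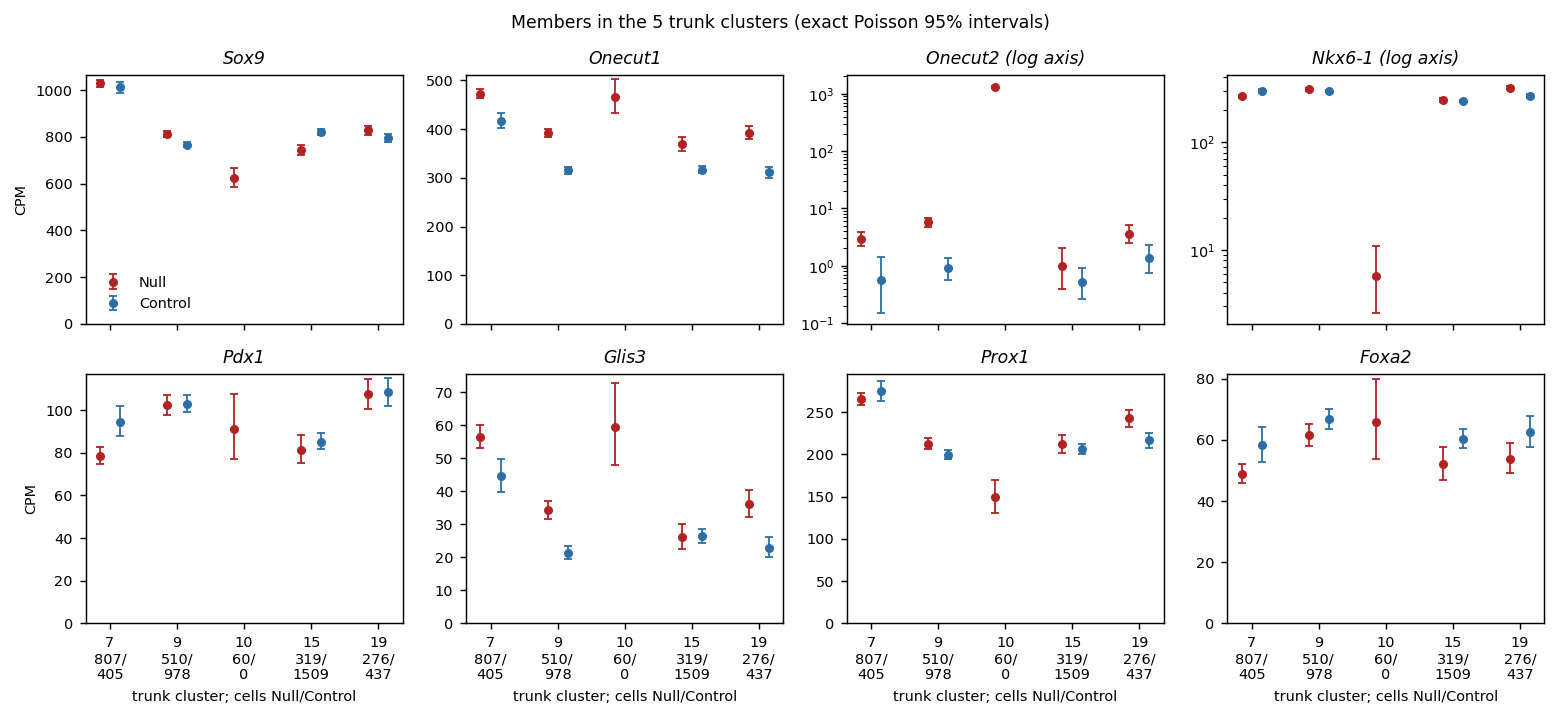
CPM of the 8 genes in each trunk cluster (log axis for Onecut2 and Nkx6-1, linear from 0 for the rest), with the number of Null and Control cells under each cluster number; red is Null, blue is Control, bars are exact Poisson 95% intervals. Cluster 10 has Null cells only, with Onecut2 at 1313 CPM and Nkx6-1 at 5.75 CPM, while Onecut1 is higher in Null cells in all 4 shared clusters.

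Onecut2 was the member with the largest ratio, 41.0 CPM in Null and 0.801 CPM in Control trunk cells, a log2 ratio of 5.68 (5.28 to 6.11). Of the Null UMIs, 91.1% came from cluster 10, a group of 60 cells that the clustering set apart without any member among its genes. In these 60 cells Onecut2 ran from 3 to 116 UMIs per cell with a median of 34, and every one of them held it. In the other 1912 Null trunk cells 3.56% (2.77 to 4.49) held an Onecut2 UMI, and in Control trunk cells 1.23% (0.885 to 1.67). Cells with at least 10 Onecut2 UMIs numbered 55 of 1972 Null trunk cells and 0 of 3329 Control trunk cells, which, taking 3 cells as the limit that a count of 0 allows, leaves a share of up to 0.0901%. Over all kept cells there were 69 such cells in the Null and 1 in the Control library. Which of the 3 Null pancreata gave the cells of cluster 10 is not recorded.

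The same 60 cells were nearly without Nkx6-1. They held 9 UMIs of it in all, 5.75 CPM (2.63 to 10.9), against 288 CPM (284 to 293) in the other Null trunk cells and 274 CPM in Control trunk cells. Only 13.3% (5.94 to 24.6) of them held an Nkx6-1 UMI, against 94.6% (93.5 to 95.6) of the other Null trunk cells, at median depths of 25849.5 and 27630 UMIs. Their value lay under the Null immune background of 11.8 CPM. The other trunk factors were present, with Sox9 at 625 CPM, Onecut1 at 467 CPM, Prox1 at 149 CPM, Pdx1 at 91.4 CPM, Foxa2 at 65.8 CPM and Glis3 at 59.4 CPM. All 60 held Sox9 and 59 held Onecut1.

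The levels of the marker lists were read in these cells. The trunk markers also name the trunk class, so their levels describe these cells and do not check the label. Of 13 trunk markers, 8 were higher than in the other Null trunk cells, among them Tspan8, a membrane protein (119 against 7.55 CPM), and Cftr, the chloride channel of duct cells (13.4 against 1.61 CPM), while Spp1 (2778 against 4141 CPM) and Cldn10, a tight junction protein (12.8 against 175 CPM), were lower. Acinar markers summed to 1018 against 1364 CPM. Of the 6 liver markers, 4 were higher and 2 were at 0; Afp, the fetal liver protein, had 222 against 6.11 CPM, and Alb, Apoa1 and Apoa2 were each under 4 CPM. Mesenchymal markers summed to 176 against 34.2 CPM, with 8 of 9 higher. Of 10 endocrine progenitor markers, 6 were higher and 2 were at 0, with a summed level of 297 against 296 CPM. Of 5 gut epithelium markers, 2 were higher, among them Cdx2 with 3 against 0 UMIs. Another 2 were at 0, and the summed level of the 5 was 7.03 against 4.23 CPM. Their part in the Onecut2 level was not tested, and the cells are called by their rule, the trunk cluster led by Onecut2. With 50 principal components a cluster of 56 Null cells and no Control cell, led by the same gene, was left without a class name, since its top genes held more markers of other classes, and the trunk ratio of Onecut2 was then 2.36. Without the 60 cells the trunk ratio of Onecut2 was 2.23 (1.78 to 2.70), with 3.75 CPM in Null trunk cells, still past the fold rule. That level rests on 200 UMIs in 68 of 1912 cells, with up to 26 in 1 cell. The interval counts UMIs as independent and does not reflect this unevenness. The other 7 members kept ratios from -0.20 to 0.67.

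Onecut2 was also higher in the Null library in each of the other 5 classes compared. In endocrine progenitor cells it had 11.8 CPM in the Null and 6.30 CPM in the Control library (log2 ratio 0.91, 0.42 to 1.39), a call lost when cells were thinned to 5000 UMIs (0.68). At least 10 Onecut2 UMIs were held by 3 of 351 Null and 0 of 772 Control cells of this class. The counting interval does not reflect UMIs gathered in few cells. In endocrine precursor cells Onecut2 had 27.9 and 10.3 CPM (1.44, 1.04 to 1.84). Alpha cells held 24.4 and 10.4 CPM (1.23, 0.94 to 1.53) and beta cells 27.2 and 13.8 CPM (0.98, 0.49 to 1.49). Without the low-UMI cluster of the alpha class, given below, the alpha ratio was 0.55 and did not pass the rule, nor did it at 0.50 with 50 principal components, at 0.57 at the finer clustering resolution of 2 or at 0.08 with free RNA subtracted. In acinar cells it had 0.813 CPM (99 UMIs) in the Null and 0.284 CPM (33 UMIs) in the Control library, levels no higher than those of immune cells, and the ratio of 1.52 lost its call with a mean over cells (0.51) and with cells thinned to 5000 UMIs (1.49). In neural crest cells its intervals overlapped.

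**Figure D3:**
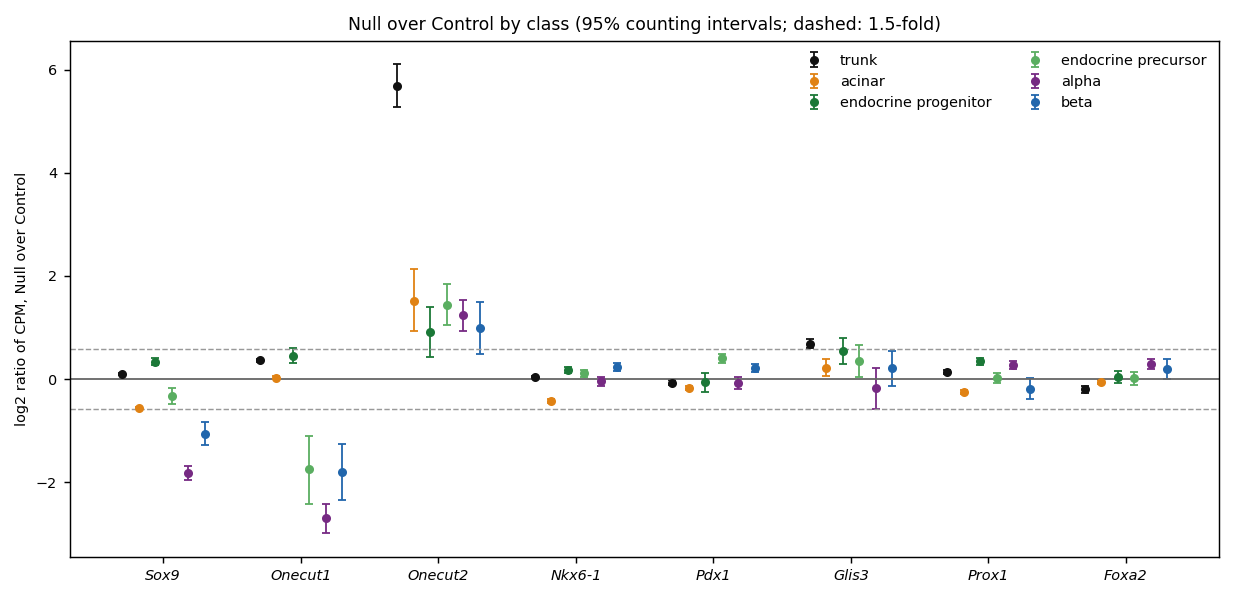
Log2 ratio of CPM, Null over Control, of each gene in the 6 classes with at least 100 cells in both libraries; bars are 95% counting intervals and dashed lines mark 1.5-fold. Onecut2 lies above the upper line in every class, Glis3 in trunk cells, and Sox9 and Onecut1 lie below the lower line in alpha and beta cells, and Onecut1 also in endocrine precursor cells.

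In endocrine progenitor cells, 1 of the 8 members (Onecut2) passed the rule as higher in the Null library and none as lower, where 3.68% of 13134 genes passed as higher and 3.08% as lower. Glis3 was close to the line, with 39.1 CPM in the Null and 26.8 CPM in the Control library (0.54, 0.30 to 0.79). Onecut1 had 109.9 and 80.1 CPM (0.46), Prox1 528 and 416 CPM (0.34) and Sox9 396 and 313 CPM (0.34). Nkx6-1, Foxa2 and Pdx1 were nearer to 0, at 0.18, 0.04 and -0.07. The class holds a step. Its cluster 16 (104 Null and 165 Control cells) still had Sox9 at 805 CPM in Null and 729 CPM in Control cells and Neurog3 at 792 and 686 CPM, and its cluster 21 (226 and 559 cells) had Sox9 at 154 and 172 CPM and Neurog3 at 3043 and 2680 CPM. Cluster 16 made up more of the Null class, and within cluster 21 Onecut1 was at 10.9 CPM in Null and 34.3 CPM in Control cells. The Control value lay under the 50.7 CPM of Control immune cells and is read as background, while Null immune cells were at 5.44 CPM.

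In acinar cells Onecut2 alone passed the rule, where 3.62% of 16646 genes passed as higher in the Null library and 5.85% as lower. Ratios under 0 with intervals that excluded it were seen for 5 members, all short of the fold. The share of all genes with such intervals was not counted. Of all genes measured in the class 45.2% had a ratio above 0, as had 3 of the 8 members, and the median over all genes was -0.03. Sox9 had 193 CPM in Null and 285 CPM in Control acinar cells, a log2 ratio of -0.56 (-0.59 to -0.54), and Nkx6-1 had 55.7 and 74.8 CPM (-0.43, -0.47 to -0.38). Prox1 had 84.4 and 99.7 CPM (-0.24) and Pdx1 91.1 and 103 CPM (-0.18). Onecut1 had 149 and 146 CPM (0.03, -0.00 to 0.06). Sox9 was lower in Null cells in each of the 7 acinar clusters, with the largest share of Null acinar cells in cluster 4 and of Control acinar cells in cluster 1. Acinar cluster 2 (130 Null and 241 Control cells), stood between acinar and trunk cells, with Sox9 at 550.1 CPM in Null and 672 CPM in Control cells, Nkx6-1 at 158 and 169 CPM and Prox1 at 169 and 171 CPM. In immune cells, where the reads are background, Sox9 had 15.5 CPM in the Null and 121 CPM in the Control library, and Nkx6-1 11.8 and 65.6 CPM. The part of free RNA in the acinar values was not tested, since the estimate from enzymes cannot be made in cells that make them.

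In endocrine precursor cells, Onecut2 passed as higher and Onecut1 as lower, against 2.68% and 4.56% of 12627 genes. The Onecut1 values, 4.71 and 15.7 CPM, were under background. Pdx1 had 424 CPM in Null and 321 CPM in Control cells (0.40, 0.32 to 0.48). It was far higher in cluster 0, at 591 and 472 CPM, than in cluster 14, at 159 and 177 CPM, and cluster 0 held most Null cells of the class (185 of 312) while cluster 14 held most Control cells (355 of 675). Nkx6-1 had 577 and 532 CPM (0.12), and Foxa2 (163 and 161 CPM) and Prox1 (249.5 and 245 CPM) differed by 0.02 each on the log2 scale.

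In beta cells, 1 member was past the rule as higher (Onecut2) and 2 as lower (Onecut1 and Sox9), against 1.80% and 5.95% of 11722 genes. The lower pair lay under the immune values in the Control library, with Sox9 at 54.7 CPM in Null and 114 CPM in Control beta cells and 121 CPM in Control immune cells, and Onecut1 at 8.14 and 28.2 CPM against 50.7 CPM. The free RNA estimate was 19.4% in Control beta cells and 32.4% in Control immune cells, so the immune value may overstate the beta background. With free RNA subtracted Sox9 was at -0.62, and Onecut1 gave no value. Pdx1, at 594 and 512 CPM (0.22, 0.13 to 0.30), and Nkx6-1, at 583 and 495 CPM (0.23, 0.15 to 0.32), were the members with the clearest levels. The alpha class held a cluster of low UMI counts (92 Null and 494 Control cells, medians of 2723 and 5227 UMIs), and its free RNA estimate was 9.91% in the Null and 62.7% in the Control library. There, 1 member passed as higher and 2 as lower, against 11.2% and 11.8% of 14420 genes, and without that cluster Onecut1 was at -1.32, against -2.69 with it, and Sox9 at -0.80, against -1.83.

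The members were then followed over trunk and endocrine progenitor cells grouped by their Neurog3 UMIs after thinning to 5000 UMIs, since Neurog3 commits cells to the endocrine lineage. Groups with 0, 1, 2 to 4, and 5 or more UMIs held 1774, 157, 68 and 257 Null cells and 2922, 284, 170 and 556 Control cells. Sox9 kept its level at 0 and 1 UMI, with 905 and 889 CPM in Null and 830.3 and 859 CPM in Control cells, and was lower at 2 to 4, with 684 CPM in Null and 725 CPM in Control cells. At 5 or more it had 185 CPM in Null and 177 CPM in Control cells. Onecut1 went the same way, with 420 CPM at 0 and 46.5 CPM at 5 or more in Null cells, and 322 and 42.3 CPM in Control cells, the last under its immune background.

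Prox1, Nkx6-1 and Foxa2 ran the other way. Prox1 had 247, 284, 366 and 565 CPM over the 4 groups in Null cells and 218, 240.4, 323 and 421 CPM in Control cells. Nkx6-1 had 274, 295, 378 and 499 CPM in Null cells and 268, 295, 311 and 437 CPM in Control cells. Foxa2 had 50.3, 72.1, 90.8 and 155 CPM in Null cells and 63.2, 71.6, 114 and 161 CPM in Control cells. Glis3 had its highest value at 2 to 4 UMIs, 69.6 CPM (44.1 to 104) in Null and 45.2 CPM in Control cells, and was lower at 5 or more, with 22.4 and 23.2 CPM. Pdx1 was lowest at 5 or more, with 51.3 CPM in Null and 57.6 CPM in Control cells. Both libraries showed the same order of first and last group for each of these genes.

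**Figure D4:**
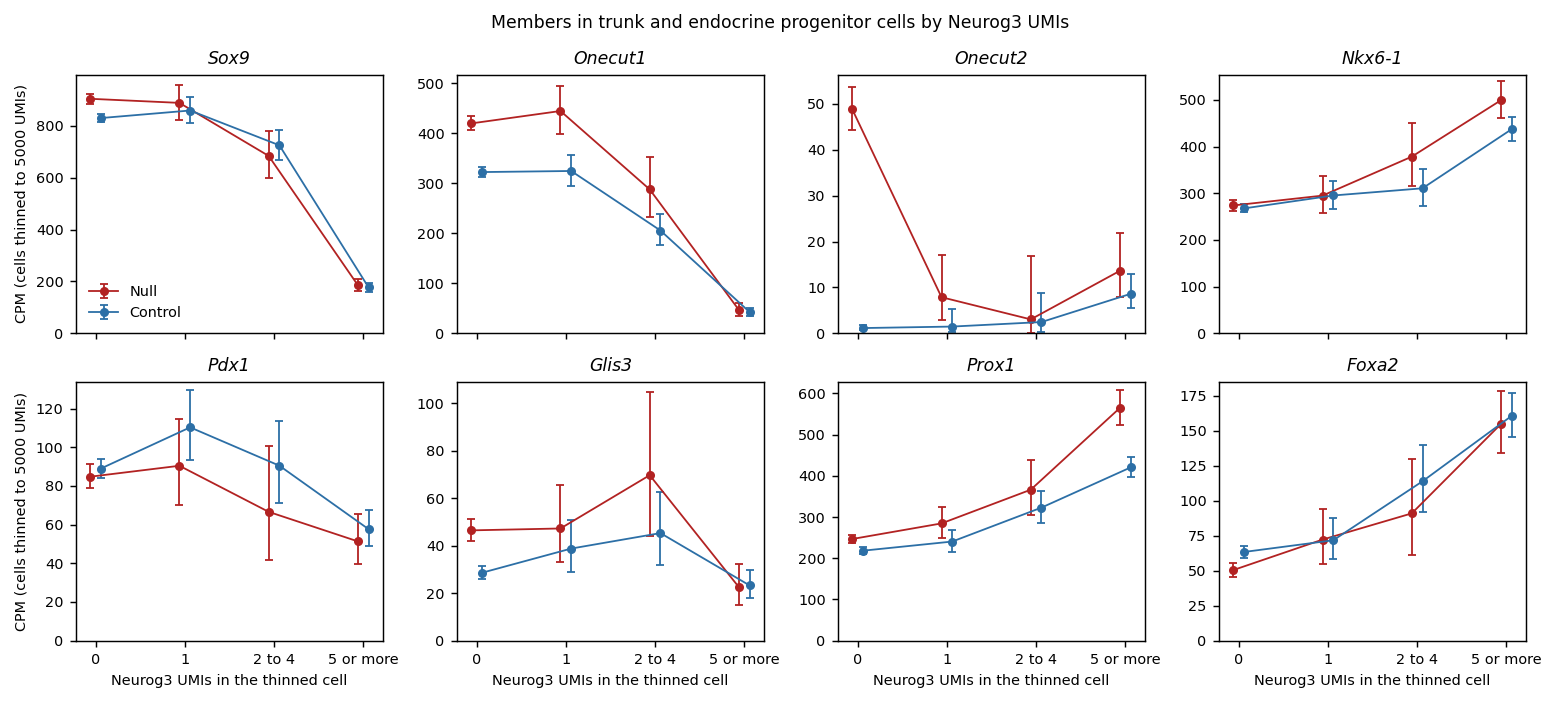
CPM of each gene (linear axis from 0) in trunk and endocrine progenitor cells grouped by Neurog3 UMIs in cells thinned to 5000 UMIs; red is Null, blue is Control, bars are exact Poisson 95% intervals. Sox9 and Onecut1 are low at 5 or more Neurog3 UMIs, Nkx6-1, Prox1 and Foxa2 are high there, and Onecut2 has its highest value at 0 UMIs in the Null library, where the trunk cluster it leads is counted.

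Cells held several members at once. After thinning, a trunk cell held a UMI of 3.82 of the 8 members on average in the Null (SD over cells 1.17, 1915 cells) and of 3.69 in the Control library (SD 1.19, 3217 cells). Endocrine progenitor cells held 3.31 and 3.28, beta cells 3.09 and 3.07, and acinar cells 2.14 and 2.38. Immune cells held 0.153 in the Null and 0.915 in the Control library; the part of free RNA and of missed doublets in these values was not tested. Sox9 was in 92.6% of Null and 93.2% of Control trunk cells, Nkx6-1 in 67.1% and 67.5%, Prox1 in 64.5% and 61.4%, Pdx1 in 31.1% and 34.4%, and Foxa2 in 20.9% and 25.6%. Without thinning, Foxa2 was in 68.3% of Null and 62.6% of Control trunk cells, the opposite order, at median depths of 27550.5 and 19191 UMIs; the CPM followed the thinned order.

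**Figure D5:**
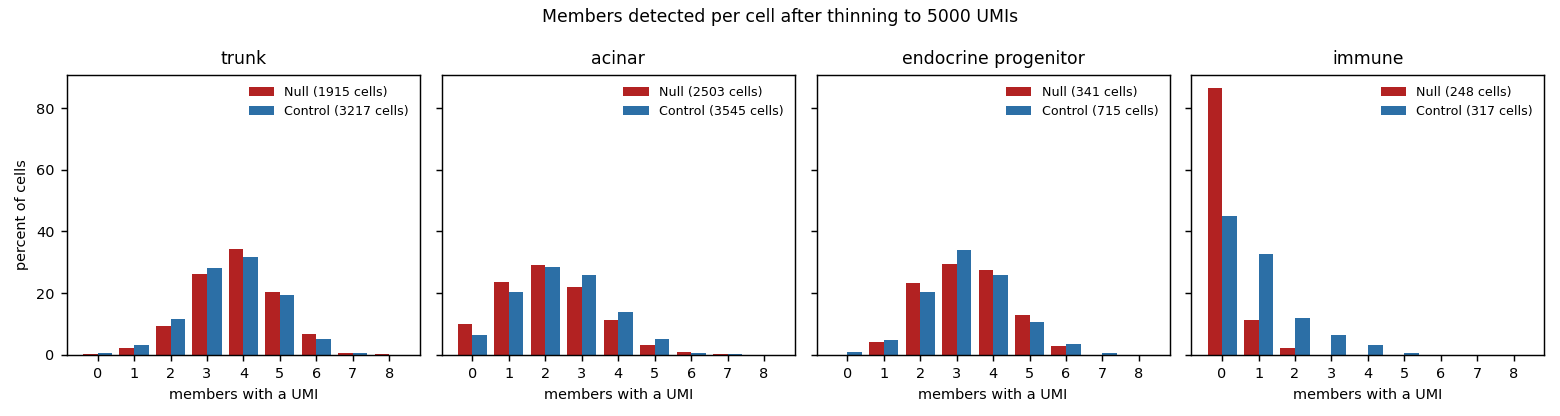
Percent of cells (axis from 0) holding a UMI of 0 to 8 of the members after thinning to 5000 UMIs, in trunk, acinar, endocrine progenitor and immune cells; red bars are Null, blue bars are Control. Trunk cells center on 4 members in both libraries, and 86.7% of Null and 45.1% of Control immune cells hold none.

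In trunk cells the share holding both genes of a pair was close to the product of the single shares. Sox9 was in 92.6% of Null and 93.2% of Control trunk cells, so a pair with Sox9 can hardly exceed its product. A weaker form of this limit holds for Onecut1, in 82.1% of Null and 74.0% of Control trunk cells. For these pairs the closeness follows largely from the single shares. Sox9 and Nkx6-1 were together in 62.3% of Null and 63.3% of Control trunk cells, where the products were 62.1% and 62.9%. Pdx1 and Nkx6-1 were together in 22.3% and 23.9%, against products of 20.8% and 23.2%. In endocrine progenitor cells Sox9 and Onecut1 were together in 22.0% of Null and 16.4% of Control cells, against products of 14.6% and 12.4%. Onecut1 and Onecut2 were together in 3.71% of Null trunk cells (product 3.73%) and in 0.342% of Control trunk cells (product 0.368%).

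Over 13 points, each a class in a library with at least 50 cells, Sox9 and Onecut1 were the most alike pair of members (Pearson r of 0.91 on log2(CPM + 1)), followed by Nkx6-1 and Glis3 (0.86). Onecut1 and Foxa2 ran opposite (-0.73), as did Onecut1 and Pdx1 (-0.72). Among 12853 other genes, the 3 most like Sox9 were Gjc1, a gap junction protein (0.990), Plpp2 (0.984) and S100a16 (0.977). Those most like Onecut1 were Rest, the repressor of neuronal genes (0.999), Mboat1 (0.994) and Mir99ahg (0.993). Pdx1 was most like Gm27033 (0.990), a gene model that begins 4872 bases past the end of Pdx1 on the same strand, then Shisal2b (0.987) and Frzb (0.968). Nkx6-1 was most like 4931428F04Rik (0.948), Prox1 like Zfp873 (0.971), Foxa2 like Mfap4 (0.983) and Dll3 (0.983), Onecut2 like Dnajc5 (0.924) and Glis3 like Tor3a (0.891). The points share libraries, depth and free RNA, and these values describe likeness over few points.

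Lists of genes around the members were read in trunk cells by the same rule. Of 24 partner factors of trunk and early progenitors, 6 were higher in the Null library and 2 lower, with a median log2 ratio of 0.11, where 5.83% of all genes measured in trunk cells passed as higher and 3.27% as lower. Without the cluster led by Onecut2, 3 were higher and 2 lower. The higher ones included Sox11, a progenitor factor (93.4 CPM in Null and 59.1 CPM in Control cells, 0.66), Klf5 (30.5 and 20.2 CPM, 0.59), Nr2f2 (15.0 and 4.99 CPM, 1.59), of whose Null UMIs 597 came from the 60 cells led by Onecut2, and Bicc1, an RNA-binding protein lost in cystic disease (606 and 383 CPM, 0.66). Without those cells Nr2f2 was at 4.29 CPM in Null trunk cells, a ratio of -0.22, and Klf5 was at 0.48, under the fold. The counts also include genes with few UMIs. Over all trunk clusters Foxa1 (28 Null and 12 Control UMIs) and Onecut3 (72 and 40 UMIs) were called higher. Nkx6-2 (62 and 121 UMIs) was called lower. Without the 60 cells Foxa1 and Nkx6-2 kept their calls and Onecut3 did not. Id3, an inhibitor of basic helix-loop-helix factors, was lower (70.3 and 119 CPM, -0.76), and Gata6 (0.05) and Tead1 (0.27) stayed under the fold. Of a list of 11 measured duct and cyst genes, 6 were higher and none lower, with a median of 0.66. Vcan and Nr2f2 were put on it because they name an epithelial cluster of the Null library and are no independent evidence of its direction. Without these genes, 4 of 9 were higher and none lower, with a median of 0.25. The 4, Pkhd1, Bicc1, Cftr and Dcdc2a, are also markers that name the trunk class, as are Spp1 and Muc1. Their levels are therefore not independent of how the class was made. Without the 60 cells led by Onecut2, 4 of the 11 were higher, with a median of 0.26, and Vcan was at 0.26. Pkhd1, the fibrocystin gene, had 50.1 CPM in Null and 29.0 CPM in Control cells (0.79), Dcdc2a 320 and 161 CPM (0.99), and Cftr 1.95 and 0.647 CPM (1.59, and 1.32 without the 60 cells), while Spp1 (0.25), Muc1 (0.18) and Slc4a4 (0.05) stayed under the fold. Dcdc2a is also among the genes that lead cluster 7, where Null trunk cells were most frequent.

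Of 14 endocrine commitment factors, none was higher and 9 were lower in Null trunk cells, with a median of -1.07, against the 5.83% of all trunk genes that passed as higher and the 3.27% that passed as lower. Insm1 had 2.31 CPM in Null and 6.79 CPM in Control cells (-1.55) and Neurod1 1.35 and 3.11 CPM (-1.21), and Neurog3 had 21.4 and 29.4 CPM (-0.46). Of 7 acinar and tip factors, 3 were lower, led by Ptf1a, with 4.68 and 13.5 CPM (-1.53), and Nr5a2 was level at 124 and 123 CPM. The called genes of both lists were at 24.4 CPM or less in either library, in a class whose free RNA estimate was 6.75% in the Null and 18.3% in the Control library. The part of free RNA in their ratios was not tested. Of 14 Notch pathway genes, none was higher and 2 were lower (Hes5 and Mfng, both under 2 CPM), and Hes1, the target that holds cells back from endocrine fate, had 735 CPM in Null and 989 CPM in Control cells (-0.43), under the fold.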

How the data were processed

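Each library is a matrix of UMI counts per gene and barcode that the authors deposited, made with Cell Ranger per the file headers; the submitters' processing notes also name bcl2fastq, Cell Ranger 6.1.1, Seurat 3.2.3 and mm10. Barcodes numbered 16708 in the Null and 30209 in the Control library, with 271129120 and 339959625 UMIs. Kept barcodes had at least 1000 UMIs, at least 300 genes and under 15% mitochondrial UMIs (9404 and 27179), and Scrublet then removed 535 (5.69%) and 209 (0.769%); its own Control threshold marked none, so 0.25 was used, and scoring only the deeper barcodes, from 5000 UMIs up, marked 3.80% and 9.07%. Cells were clustered with scanpy 1.11.5 (2000 variable genes without the members, 30 principal components, 15 neighbours, Leiden resolution 1) and named from marker lists, with naming thresholds set after the clusters were seen; 288 Null and 10332 Control cells stayed unnamed. UMIs were summed per class and library and given as CPM with exact Poisson intervals, ratios with exact conditional intervals, and shares with Clopper-Pearson intervals, all at 95% and for counting error only. With 1 library per group there is no test: a ratio was called past 1.5-fold with an interval that excluded 0 on the log2 scale. Named besides the members are, for each, the 3 genes most like it in log2(CPM + 1) over classes and libraries, and genes of fixed lists. The members and lists were chosen with earlier results of these data known. The scripts were tested on simulated counts.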

Additional observations from a re-analysis of the deposited data

Results flagged for a closer look

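The Null over Control ratio of Sox9 was 0.34 (log2) in endocrine progenitor cells and -1.83 in alpha cells, and that of Onecut1 was 0.46 and -2.69. They are given here because the same contrast ran in opposite directions in these classes. With classes taken from each cell's own markers, the endocrine progenitor ratios were -0.13 for Sox9 and -0.53 for Onecut1, and Onecut1 was at -0.09 at the finer clustering resolution, so the opposite direction did not hold under these settings and the cause was not tested. The difference between classes was not tested, as each group is 1 library. In alpha cells Onecut1 had 12.3 CPM in the Null and 79.9 CPM in the Control library, and Sox9 58.7 and 208 CPM, with free RNA estimates of 9.91% and 62.7%, whose part in these ratios was not tested.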

How the results depend on the processing

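Of 48 ratios (8 genes in 6 classes), 12 were called; all 12 kept their sign under every alternative that gave a value, and 7 kept their call. The median trunk ratio of the members, reported as 0.12, was -0.061 with the clusters weighted alike. It was 0.19 with classes from each cell's own markers and 0.026 with free RNA subtracted. Weighting alike gives cluster 10, with 60 Null cells and no Control cell, the same weight as each other Null trunk cluster. The cause of these shifts was not tested. The count of members past the fold in trunk cells, 2 as reported, was 1 with the clusters weighted alike and 1 at a fold of 2. The number highest in Null trunk cells, 4 as reported, was 2 with 50 principal components. Onecut2 in trunk cells ran from 2.23 to 8.30, the latter with the clusters weighted alike. Glis3 ran from 0.56 to 0.81 and Onecut1 from 0.25 to 0.44. Leaving out the trunk cluster led by Onecut2 or the low-UMI alpha cluster, and Vcan and Nr2f2 from the duct and cyst list, was chosen after seeing the data. Subtracting free RNA gave no value for Onecut1 in endocrine precursor, beta and alpha cells or for Sox9 in alpha cells. No paired analysis was possible because each group is 1 pooled library, and for the same reason no replicate could be left out.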
